A study of Mus musculus with 12 samples.

Results

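This account covers 355 long stretches of acetylated chromatin in mouse melanoma cells in which the histone mark H3K4me1 was called in cells with intact Kmt2d and was called nowhere in cells mutant for Kmt2d. They were found by joining autosomal WT H3K27ac peaks across gaps of at most 12.5 kb, and retaining domains that spanned at least 20 kb. Of the 1313 domains this gave, 1144 overlapped a WT H3K4me1 peak by at least 1 bp, and 355 of these, 31.0%, overlapped no mutant H3K4me1 peak. They are called the losing domains here, and the other 789 the keeping domains. Another 136 large domains had no H3K4me1 peak in either genotype, and 33 had one in the mutant only. "Losing" stands for the lack of a called peak in the mutant library, not for the absence of the modification.

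KMT2D is one of the enzymes that add a single methyl group to lysine 4 of histone H3, mainly at enhancers, the distant elements that raise transcription of a gene. H3K27ac is the acetyl mark of active enhancers and promoters, and clusters of enhancers with long H3K27ac cover are often found near genes that define a cell type. H3K4me3 marks promoters, H3K79me2 is laid down by DOT1L over the first part of transcribed genes, and H3K27me3 is the mark of Polycomb repression.

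The mutant cells came from iBIP mice of genotype KMT2DL/L, and the WT cells from iBIP mice of genotype KMT2D+/+. All the mice had a mixed FVB and B6 background and shared the alleles PTENL/L and INK/ARFL/L along with TetO-BRAFV600E, Rosa26-rtta and Tyr-CreERT2. In this model a tyrosinase promoter drives a tamoxifen-dependent Cre in pigment cells and doxycycline switches on mutant BRAF. Doxycycline, with 1 uM 4-OHT on the ear skin, gave rise to ear tumours from which the cells were isolated, and the animals' ages and the number of tumours behind each culture are not given in the sources used here. Excision of Kmt2d cannot be read from peak lists, and the labelled cell type was not checked against marker genes, for lack of gene positions on the build of the lists. Each genotype had 1 ChIP-seq library for each of 5 marks, so no value below has a replicate check and no test between genotypes was possible. Read depth is unknown, and the 95% intervals given with shares are exact (Clopper-Pearson) and cover counting error only. Neighbouring peaks and domains are not independent.

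The H3K4me1 lists differed in length, with 5358 peaks in the mutant and 15981 in WT. Of all autosomal WT H3K4me1 peaks, 77.0% had no mutant peak. The number of losing domains depended on the length of these lists. When only the 5358 strongest WT H3K4me1 peaks were used, 181 domains had H3K4me1 in WT and none in the mutant, and 160 had it in the mutant and none in WT. With the full lists these counts were 355 and 33. The 355 domains were chosen by the mutant and WT H3K4me1 lists and the WT H3K27ac list, so values of those lists in them are description only.

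The losing domains were shorter and more sparsely marked than the keeping domains. Their span ran from 20046 to 107632 bp with a median of 27402 bp, against a median of 35730 bp in the keeping domains. WT H3K27ac covered a median of 37.1% of the span in losing and 47.1% in keeping domains. Domains with no H3K4me1 in either genotype were shorter and sparser still, with medians of 24910 bp and 32.4%. Those with H3K4me1 in the mutant only had medians of 27654 bp and 35.8%. A losing domain held a median of 2 WT H3K4me1 peaks covering 8.75% of its span, and a keeping domain 5 peaks covering 20.8%. The best WT H3K4me1 score in a domain, where the score is 10 times the −log10 p of the peak caller, had a median of 213.2 in losing and 435.1 in keeping domains.

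The more H3K4me1 a domain had in WT, the less often it had none in the mutant. Some such fall follows from the rule, as each further WT peak was another place where a mutant peak would make the domain keeping. The H3K4me1 lists set the classes, so these shares are description only. Of domains with a single WT H3K4me1 peak, 62.6% were losing (95% interval 55.3 to 69.5, 119 of 190). The share was 51.3% with 2 peaks (102 of 199) and 30.4% with 3 or 4 (95 of 312). With 5 or more it was 8.80% (6.33 to 11.8, 39 of 443). Only 4 of the 173 domains with 8 or more WT H3K4me1 peaks were losing. When the 1144 domains were put into 4 equal groups by their best WT H3K4me1 score, 59.1% of the weakest group and 3.85% of the strongest, 11 of 286 domains, were losing.

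**Figure D1:**
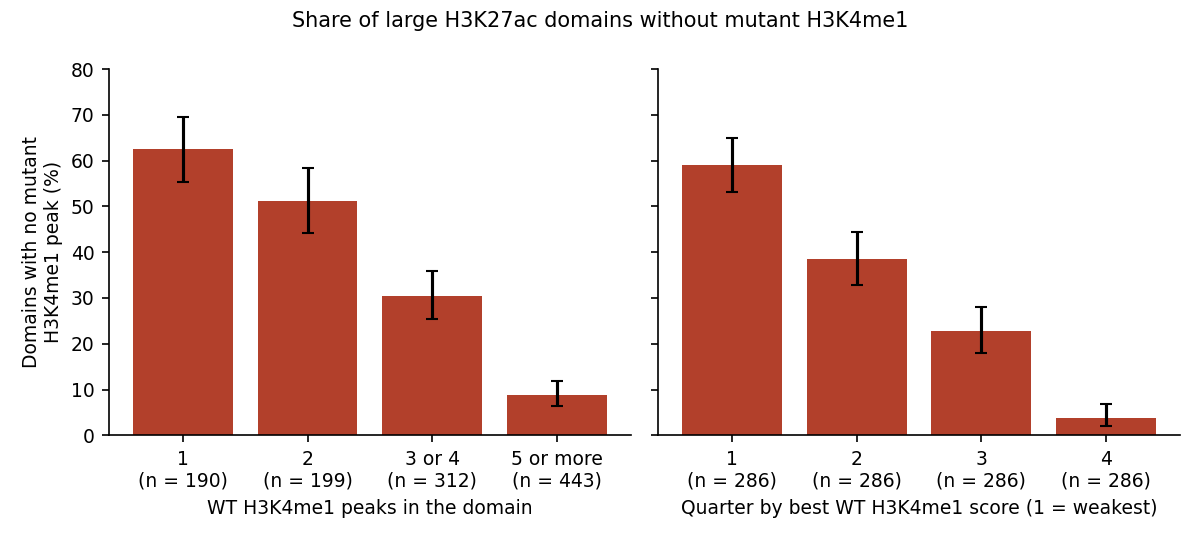
Share of the 1144 large WT H3K27ac domains with WT H3K4me1 that had no mutant H3K4me1 peak (y axis, percent), by the number of WT H3K4me1 peaks in the domain (left) and by 4 equal groups of the best WT H3K4me1 score (right). Bars are shares and whiskers exact 95% binomial intervals; the share is 62.6% with 1 peak and 8.80% with 5 or more.

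Acetylation was called in the mutant in nearly all losing domains, as in nearly all large domains. A mutant H3K27ac peak was present in 354 of the 355, against 99.7% of all 1313. Of the 2023 WT H3K27ac peaks in losing domains, 76.9% (75.02 to 78.7) had a mutant peak, where 24.0% of all autosomal ones had none. Over the losing domains H3K27ac covered 4.26 Mb in the mutant and 4.59 Mb in WT, a ratio of 0.929. Over the keeping domains it covered 16.9 Mb in both genotypes, a ratio of 1.00. Per domain, the mutant over WT ratio of H3K27ac length had a median of 0.904 in losing domains and 0.986 in keeping domains, 0.846 in the 136 domains with no H3K4me1 in either genotype, and 0.953 over all large domains. The middle 50% of the losing domains lay between 0.761 and 1.09, so many had as much acetylated length in the mutant as in WT.

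Mutant H3K27ac length was at least that of WT in 37.2% (32.1 to 42.4) of losing and 47.8% (44.3 to 51.3) of keeping domains, where 41.7% of all large domains and 21.3% (14.8 to 29.2) of those with no H3K4me1 in either genotype met this. The difference was -10.6 percentage points (Newcombe 95% interval -16.6 to -4.40), but 1.15 points (-5.71 to 7.997) within classes by number of WT H3K4me1 peaks. These classes were 1, 2, 3 or 4, and 5 or more peaks. The last was not matched further, and reached 10 peaks in losing and 44 in keeping domains. Within like WT H3K27ac length, an alternative chosen after seeing the data, the difference was -9.59 points (-16.5 to -2.71). It was 0.813 points (-4.91 to 6.15) when the mutant H3K27ac list set the domains. The share in losing domains was then 76.4% (71.4 to 80.9), so its level depended on which list drew the domains. Domains drawn on the WT H3K27ac list favour WT length, in this share and in the ratios of H3K27ac length above. Acetylation of under 50% of the WT length was found in 23 of the 355 losing domains, 6.48% (4.15 to 9.56), and in 14 of the 789 keeping domains, 1.77% (0.973 to 2.96). The share was 10.3% (5.74 to 16.7) of the domains with no H3K4me1 in either genotype, and 4.11% of all large domains.

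**Figure D2:**
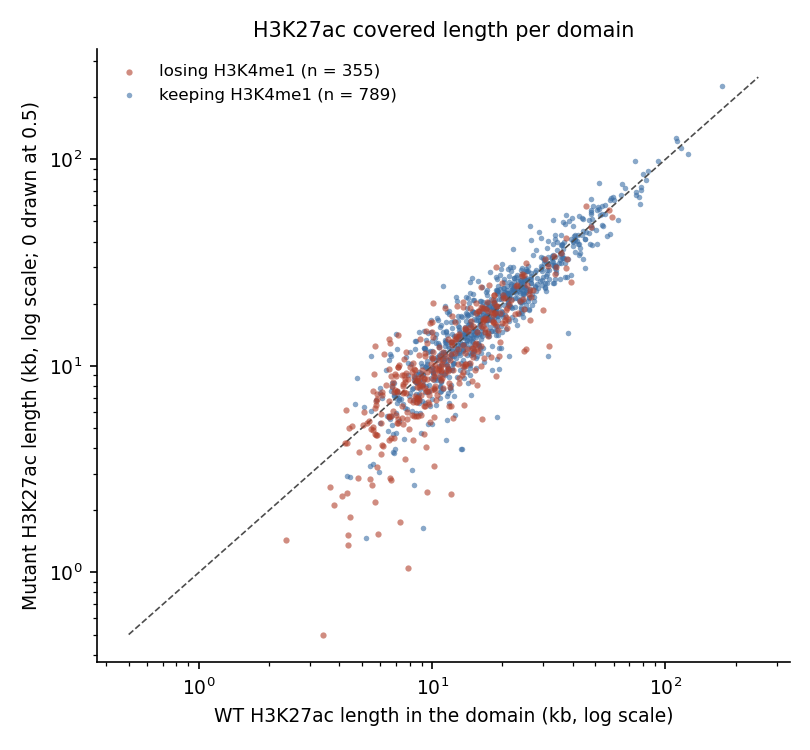
H3K27ac covered length per domain in the mutant (y axis, kb, log scale) against WT (x axis, kb, log scale) for 355 losing domains (red) and 789 keeping domains (blue). The dashed line is equal length; the single losing domain with no mutant H3K27ac is drawn at 0.5 kb, and the points of both classes lie along the line with more spread at short lengths.

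A large mutant H3K27ac domain, joined by the same gap and span, overlapped 69.3% (64.2 to 74.1, 246 of 355) of the losing and 82.9% (80.1 to 85.5, 654 of 789) of the keeping domains, against 75.8% of all large domains and 53.7% (44.9 to 62.3) of those with no H3K4me1 in either genotype. The difference of -13.6 points (-19.1 to -8.24) was -5.28 points (-11.9 to 1.39) within the same classes by number of WT H3K4me1 peaks. Under this joining the mutant H3K27ac of 291 losing domains was a single cluster, 82.0% (77.6 to 85.8), against 82.6% of all large domains. A single cluster of at least 2 peaks was found in 279 losing domains, 78.59% (73.95 to 82.75), against 79.97% of all large domains. In 63 losing domains the mutant H3K27ac formed at least 2 clusters, 17.7% (13.9 to 22.1), against 17.1% of all.

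At the H3K4me1 sites themselves, acetylation was common in the mutant. The losing domains overlapped 868 WT H3K4me1 peaks, of which 865 had no mutant H3K4me1 peak and 3 met one outside the domain. Of the 868, 79.7% (76.9 to 82.4) had a mutant H3K27ac peak. Across all autosomal WT H3K4me1 peaks without a mutant one, 50.1% had mutant H3K27ac. The rule placed the domains on WT H3K27ac, and 88.8% of the 865 sites in losing domains had H3K27ac in WT, against 51.2% of all such autosomal sites. Where WT H3K27ac was present, mutant H3K27ac was found at 85.8% (83.1 to 88.2, 659 of 768) of the sites in losing domains, at 89.2% (87.9 to 90.5, 2056 of 2304) of the sites without mutant H3K4me1 in keeping domains, and at 84.3% (83.3 to 85.1) genome-wide. A mutant H3K4me3 peak in place of H3K4me1 was uncommon: of 627 sites with no WT H3K4me3, 21 (3.35%, 2.09 to 5.07) had H3K4me3 in the mutant.

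The H3K27ac peaks inside losing domains differed in how often the mutant had them. There were 2023 of these WT peaks, and 34.0% (31.9 to 36.1) overlapped WT H3K4me1. Among the 617 with H3K4me3, which are promoter-like, 89.95% (87.3 to 92.2) had mutant H3K27ac. Among the 465 with H3K4me1 and no H3K4me3, 80.9% (77.0 to 84.3) did, and among the 941 with neither mark 66.4% (63.3 to 69.4). So the acetylated peaks that had carried H3K4me1 had mutant acetylation more often than distal peaks that had carried none. Their WT H3K27ac scores also differed, with medians of 334.0 and 198.9. Within 5 groups of like score, the share with H3K4me1 minus the share without averaged 3.52 points (-1.40 to 8.44). In the keeping domains the same 3 shares were 94.2%, 88.6% and 67.2%.

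**Figure D3:**
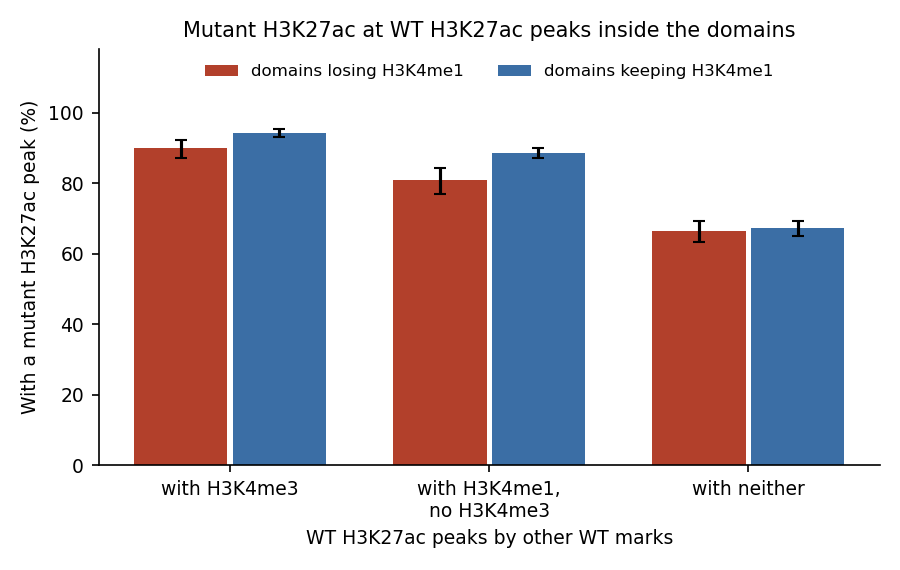
Share of WT H3K27ac peaks with an overlapping mutant H3K27ac peak (y axis, percent) in losing (red) and keeping (blue) domains, for peaks with H3K4me3, with H3K4me1 and no H3K4me3, and with neither in WT. Whiskers are exact 95% binomial intervals; in losing domains the shares are 89.95%, 80.9% and 66.4%.

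H3K4me3, the promoter mark, was called in nearly the same losing domains in both genotypes. In the mutant 287 losing domains had H3K4me3, and in WT 288 did. It was present in both genotypes in 283 of the 288, 98.3% (96.0 to 99.4), the same as the 98.3% over all large domains. H3K4me3 covered 1.49 Mb in the mutant and 1.43 Mb in WT, a ratio of 1.05, and the same ratio, 1.05, was found in keeping domains. At the level of single peaks, 90.7% (88.1 to 92.8) of the 643 WT H3K4me3 peaks in losing domains had a mutant peak, where 11.4% of all autosomal WT H3K4me3 peaks had none. In keeping domains 84.6% (82.9 to 86.2) had one. No H3K4me3 peak in either genotype was found in 63 losing domains, 17.7% (13.9 to 22.1), against 85 keeping domains, 10.8% (8.70 to 13.1), and 13.9% of all large domains. These stretches had acetylation without any called promoter mark.

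H3K79me2, the mark of transcribed gene bodies, was shorter in the mutant, and more so in losing than in keeping domains. The whole mutant H3K79me2 list also held fewer peaks, 22103 against 26353 in WT. H3K79me2 covered 1.60 Mb of the losing domains in the mutant and 2.07 Mb in WT, a ratio of 0.775. In keeping domains the ratio was 0.924, with 10.8 Mb in the mutant and 11.7 Mb in WT, and over all large domains it was 0.901. Among the 262 losing domains with WT H3K79me2, the median mutant over WT ratio per domain was 0.787 (95% interval of the median, from binomial order statistics, 0.757 to 0.835). Among 683 keeping domains it was 0.937 (0.916 to 0.951). The 95 domains with WT H3K79me2 and no H3K4me1 in either genotype had a median of 0.870. H3K79me2 was shorter in the mutant in 202 of the 262 losing domains, 77.1% (71.5 to 82.1), and in 482 of the 683 keeping domains, 70.6% (67.0 to 74.0). The share was 72.3% of all large domains with WT H3K79me2, and 72.6% (62.5 to 81.3) of the 95 with no H3K4me1 in either genotype.

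The lower H3K79me2 ratio of losing domains was found in each class by number of WT H3K4me1 peaks. With a single WT H3K4me1 peak the median ratio was 0.796 in losing and 0.960 in keeping domains. With 5 or more it was 0.752 and 0.931. It was not found where H3K79me2 was short in WT: in the group of losing domains with 200 to 2765 bp of it, the median ratio was 0.804, and 0.797 in keeping domains of like length. In the group with the longest cover, at least 11346 bp in losing domains and 11273 bp in keeping domains, the medians were 0.833 and 0.947, and in the group below it 0.750 and 0.917. Over all domains with WT H3K79me2, the losing median stayed below the keeping one in each alternative way of drawing domains or peak lists. The intervals overlapped with a joining distance of 5000 bp, at 0.765 to 0.9705 in losing and 0.941 to 0.973 in keeping domains. They also overlapped in domains without WT H3K4me3. There the medians were 0.310 (0 to 0.833, 14 losing domains) and 0.820 (0.592 to 0.944, 45 keeping domains).

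**Figure D4:**
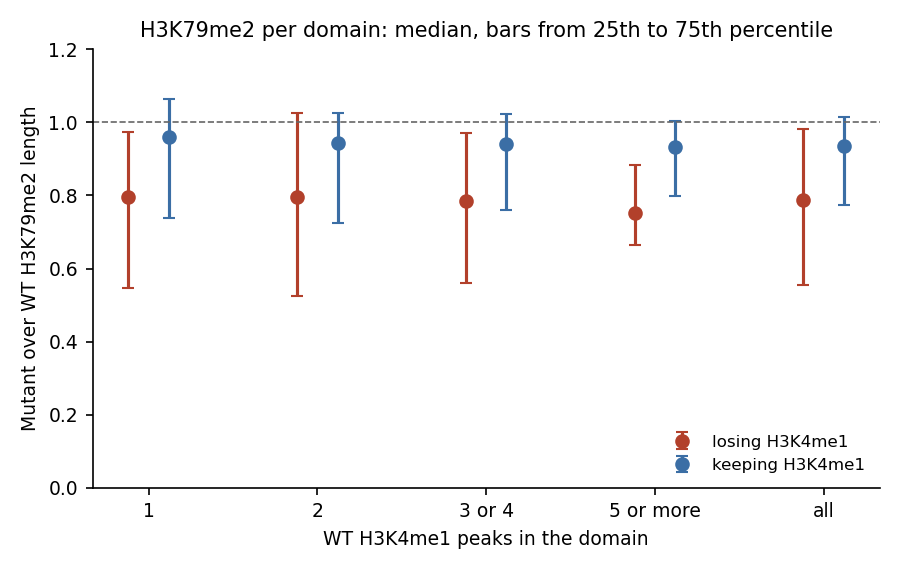
Mutant over WT H3K79me2 covered length per domain (y axis, ratio) by the number of WT H3K4me1 peaks (x axis) for losing (red) and keeping (blue) domains that had WT H3K79me2. Points are medians, bars run from the 25th to the 75th percentile, and the dashed line marks equal length; the medians over all are 0.787 and 0.937.

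Whether H3K79me2 was called at all in the mutant, where WT had it, differed little between the classes, by -3.01 points (-7.01 to 0.116). Of the 262 losing domains with WT H3K79me2, 243 had a mutant peak, 92.7% (88.9 to 95.6), against 654 of 683 keeping domains, 95.8% (94.0 to 97.1), and 94.7% of all large domains. Of the 738 WT H3K79me2 peaks in losing domains 73.3% (70.0 to 76.5) had a mutant peak, where 36.7% of all autosomal WT H3K79me2 peaks had none, and in keeping domains 77.7% (75.9 to 79.3) had one. In losing domains the median width was 753.0 bp for those without a mutant peak and 3026 bp for those with one. Fewer losing domains carried the mark at all: WT H3K79me2 was found in 73.8% (68.9 to 78.3) of them and in 86.6% (84.0 to 88.9) of keeping domains.

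H3K27me3 was present in a minority of the losing domains in both genotypes. It was found in 63 of 355 in the mutant, 17.7% (13.9 to 22.1), and in 58 in WT, 16.3% (12.7 to 20.6). In keeping domains the shares were 10.8% (8.70 to 13.1) in the mutant and 8.87% (6.98 to 11.1) in WT. Over all large domains they were 12.8% in the mutant and 10.8% in WT. Domains with no H3K4me1 in either genotype had 12.5% (7.45 to 19.3) in the mutant and 8.09% (4.11 to 14.0) in WT. H3K27me3 covered 0.200 Mb of the losing domains in the mutant and 0.137 Mb in WT, a ratio of 1.46, and the ratio in keeping domains was 1.92. The whole H3K27me3 list held 14712 peaks in the mutant and 13277 in WT. Both genotypes had the mark in 47 of the 58, 81.0% (68.6 to 90.1), against 80.3% of all large domains with WT H3K27me3. Of the 101 WT H3K27me3 peaks in losing domains 65.3% (55.2 to 74.5) had a mutant peak, where 35.1% of all autosomal ones had none. Of the 297 losing domains with no WT H3K27me3, 16 had it in the mutant, 5.39% (3.11 to 8.60), close to the 4.61% of all large domains. H3K4me3 overlapped 67.6% (57.7 to 76.6) of the mutant and 59.4% (49.2 to 69.1) of the WT H3K27me3 peaks in losing domains, and 56.2% and 66.3% of those in keeping domains. H3K27ac overlapped 56.9% of the mutant and 69.3% of the WT ones in losing domains.

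The most common set of marks besides H3K4me1 was H3K27ac with H3K4me3 and H3K79me2 and without H3K27me3, marks that active genes carry. Each mark was counted if called anywhere in the domain, so the marks need not lie at the same gene. It was found in 188 losing domains in the mutant and in 197 in WT. H3K27ac alone was found in 54 mutant and 50 WT cases. All 4 marks were called in 50 domains in the mutant and 51 in WT. These combinations were not counted in the other large domains. Of all large domains, 84.4% had WT H3K4me3 and 81.2% WT H3K79me2, against 81.1% and 73.8% of the losing domains.

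Within a losing domain the WT H3K4me1 peaks lay near the ends about as often as the WT H3K27ac peaks did. Centres of WT H3K4me1 peaks lay within 25% of the span from either end in 60.02% (56.7 to 63.3) of cases, and the centres of WT H3K27ac peaks in 59.9% (57.7 to 62.0). H3K4me1 centres outside the domain were counted at its edge. WT H3K27ac peaks set the domain ends and overlapped 88.8% of the 865 sites without mutant H3K4me1, so like shares were partly given by the rule. The mutant H3K4me1 peak nearest to a losing domain was at a median distance of 68993 bp from its edge. It lay within 10000 bp of 17 domains, 4.79% (2.81 to 7.56), within 1000 bp of 6, and within 100000 bp of 213. The nearest, at 147.0 bp, belonged to the domain on chromosome 17 (46991148 to 47028643). The farthest, 2.97 Mb away, belonged to that on chromosome 7 (13594237 to 13624880). For the 136 domains with no H3K4me1 in either genotype, the median distance to a mutant H3K4me1 peak was longer, at 97008 bp. Such a peak lay within 10000 bp of 4 of these, 2.94% (0.807 to 7.36). It lay within 100000 bp of 71, 52.2% (43.5 to 60.8), so the intervals of the 2 classes overlapped at both distances.

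The losing domains lay on all 19 autosomes, in unequal shares of the domains there. On chromosome 17 they were 30 of the 63 with WT H3K4me1, 47.6% (34.9 to 60.6), and on chromosome 1 33 of 73, 45.2% (33.5 to 57.3). On chromosome 3 they were 8 of 43, 18.6% (8.39 to 33.4), and on chromosome 4 14 of 67, 20.9% (11.9 to 32.6). The share of all WT H3K4me1 peaks without a mutant peak was 75.6% on chromosome 17, 79.6% on chromosome 1, 77.6% on chromosome 3 and 77.5% on chromosome 4, so it did not follow the same order. Several losing domains stood in runs with no keeping domain between them. Of the 7 runs with at least 4 losing domains, the most compact held 4 losing domains within 0.382 Mb of chromosome 11, from 115809827 to 116191945. Another held 5 within 1.62 Mb of chromosome 1, from 172831343 to 174455711, and the most spread out held 5 over 35.8 Mb of chromosome 1. The number of runs to be had from the share of losing domains alone was not computed, so clustering was not tested.

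Coordinates are those of the lists, on mm9, counted from 1. The gene and promoter tables used here are on another mouse build, so the domains carry no gene names and no sequence is shown. The longest losing domain was on chromosome 15 (85429515 to 85537146). Its 4 WT H3K4me1 peaks covered 5330 bp. H3K27ac covered 41625 bp of it in the mutant and 37506 bp in WT, H3K79me2 47154 and 58022 bp, and H3K4me3 20758 and 28127 bp, so the marks of promoters and gene bodies were shorter there in the mutant and acetylation was longer. Both genotypes had H3K27me3 in it, over 5504 bp in the mutant and 3984 bp in WT.

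The next in length lay on chromosome 17 (35872897 to 35979232), and had 7 WT H3K4me1 peaks, the best with a score of 786.0. Its H3K27ac covered 52740 bp in the mutant and 58751 bp in WT, in 17 and 23 peaks. On chromosome 9 (120704681 to 120797259) and on chromosome 15 (59333495 to 59403906) were 2 further long domains, with neither H3K4me3 nor H3K79me2 in either genotype. In the domain of chromosome 9 H3K27ac was nearly as long in the mutant, at 47004 bp, as in WT, at 47802 bp. That of chromosome 15 had 18647 bp in the mutant against 29786 bp in WT. The other 4 of the 8 longest, on chromosomes 5, 1, 2 and 19, had ratios of H3K27ac length between 0.967 and 1.30.

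The domain with the most WT H3K4me1 was on chromosome 4 (139130319 to 139179474). It had 10 WT H3K4me1 peaks over 15875 bp, and the nearest mutant H3K4me1 peak was 190795 bp away. Mutant H3K27ac overlapped 7 of the 10 sites, and its length in the domain was 18880 bp in the mutant and 16983 bp in WT. H3K79me2 covered 23987 bp in the mutant and 32181 bp in WT. A domain on chromosome 5 (32372024 to 32465594) also had 10 WT H3K4me1 peaks, over 14238 bp, of which 8 had mutant H3K27ac. Its H3K27ac length was 56743 bp in the mutant and 57386 bp in WT. Of the others with the most peaks, all 8 H3K4me1 sites of a domain on chromosome 2 (167361800 to 167431127), and all 8 of one on chromosome 19 (4190002 to 4233904), had mutant H3K27ac. H3K27ac there was longer in the mutant, with ratios of 1.30 and 1.19. Another 6 losing domains had 7 WT H3K4me1 peaks each, with ratios of 0.820 to 1.40.

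**Figure D5:**
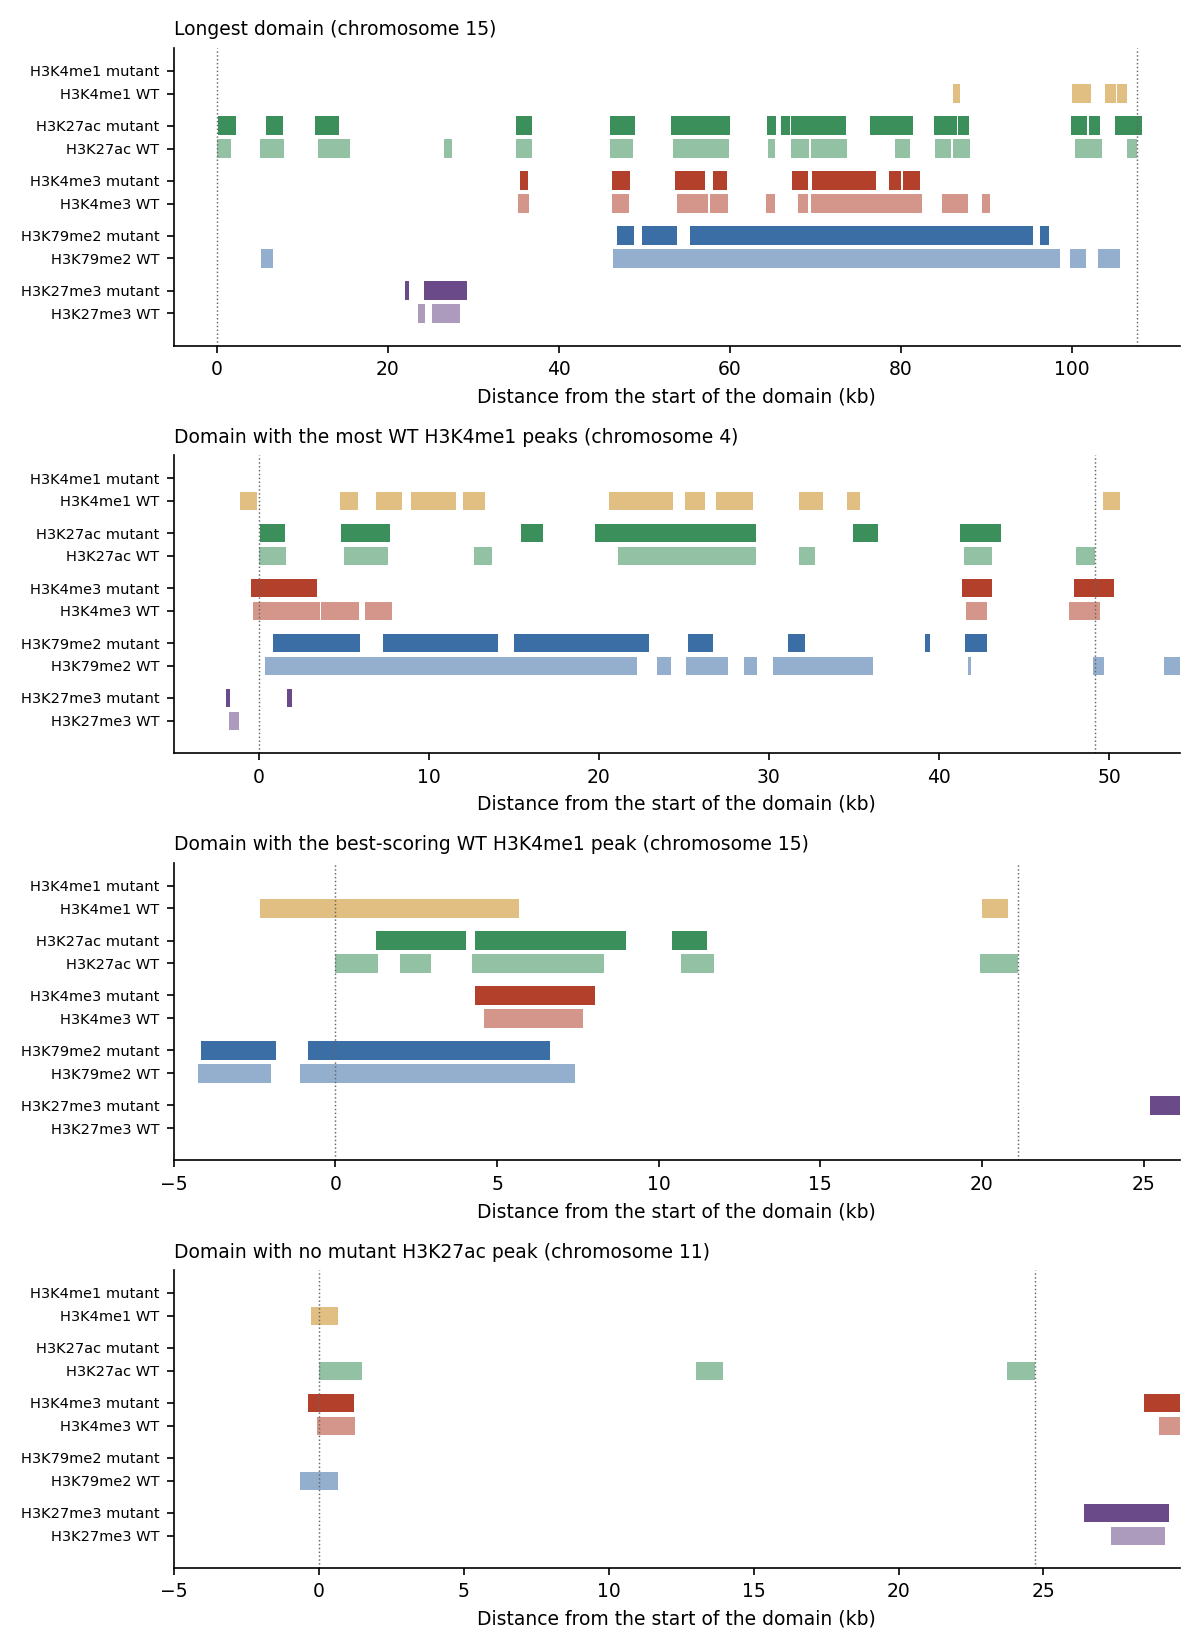
Peaks of the 5 marks in 4 losing domains, with the mutant row above the WT row for each mark (bars are called peaks; x axis, distance from the start of the domain in kb; dotted lines are its ends, with 5 kb shown on either side). The mutant H3K4me1 row is empty in all 4, and mutant H3K27ac is present in all but the last, on chromosome 11.

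The losing domain with the strongest WT H3K4me1 peak was on chromosome 15 (79265443 to 79286567). This peak, of score 1775, started upstream of the domain, at 79263116. H3K27ac covered 8572 bp of the domain in the mutant and 8608 bp in WT. The next strongest peak, of score 956.8, was in a domain on chromosome 3 (102518322 to 102568686), where H3K27ac covered 8104 bp in the mutant and 15585 bp in WT and H3K79me2 4530 and 10923 bp. Domains with peaks of score 934.7, 922.1 and 914.0 lay on chromosomes 11, 6 and 7, and their H3K27ac ratios were 1.204, 0.941 and 0.636. Strong WT H3K4me1 thus went with acetylation of like, greater and smaller length in the mutant.

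The 5 lowest H3K27ac ratios were found in domains with 1 or 2 WT H3K4me1 peaks, as 221 of the 355 had. The only losing domain with no mutant H3K27ac peak was on chromosome 11 (116167241 to 116191945). WT H3K27ac covered 3398 bp of it in 3 peaks, and H3K4me3 was present in both genotypes, over 1210 bp in the mutant and 1237 bp in WT. It had no H3K79me2 in the mutant and 664 bp of it in WT. Next came a pair on chromosome 1. In the domain from 45916334 to 45938881, H3K27ac covered 1046 bp in the mutant and 7859 bp in WT, and in that from 52703837 to 52739426, 2401 and 12059 bp. Neither had H3K4me3, H3K79me2 or H3K27me3 in either genotype. On chromosome 8 (113226739 to 113249517) mutant H3K27ac covered 1750 bp and WT H3K27ac 7302 bp. On chromosome 1 (135303084 to 135335377) it covered 2459 bp in the mutant and 9536 bp in WT, H3K27me3 covered 2668 bp in the mutant and had no peak in WT, and H3K4me3 was present in both.

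The highest ratio, 2.20, was on chromosome 2 (131715399 to 131736503), where H3K27ac covered 12503 bp in the mutant and 5675 bp in WT. Its single WT H3K4me1 peak was weak, with a score of 101.0. A ratio of 2.07 was found on chromosome 15 (61868958 to 61889224), with 13515 bp in the mutant and 6539 bp in WT. Ratios of 1.99, 1.97 and 1.96 were found on chromosomes 17, 12 and 8. The domain of chromosome 12, from 86858837 to 86887515, had 4 WT H3K4me1 peaks and none of H3K4me3, H3K79me2 and H3K27me3 in either genotype.

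Mutant H3K27me3 without WT H3K27me3 was longest on chromosome 5 (124980316 to 125003696), at 3307 bp, where H3K27ac covered 5154 bp in the mutant and 5069 bp in WT. Of the 5 domains with the longest such cover, 3 had H3K27ac ratios of 1.02 to 1.30 and 2 had ratios of 0.258 and 0.431. WT H3K79me2 without any mutant H3K79me2 was longest on chromosome 11 (49740143 to 49769175), where 8 WT peaks covered 10332 bp. Mutant H3K27ac covered 12049 bp there and WT H3K27ac 15573 bp. On chromosome 16 (10432942 to 10455238), WT H3K79me2 of 9780 bp and WT H3K4me3 of 1982 bp had no mutant peak, while H3K27ac covered 10701 bp in the mutant and 10684 bp in WT.

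The edges of the rule were close. The 3 shortest losing domains spanned 20046, 20099 and 20111 bp, and the 3 longest stretches that met the other criteria but were too short spanned 19956, 19940 and 19845 bp. Their H3K27ac ratios were 0.663, 0.562 and 0.687 just inside and 0.657, 0.797 and 0.877 just outside. The keeping domains nearest to losing had mutant H3K4me1 over 20, 64 and 115 bp, on chromosomes 17, 12 and 15.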

How the data were processed

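The 12 ChIP-seq samples are those of 5 marks and an input per genotype, grouped by title, and inputs were not used here. The 10 deposited peak lists, each called in 1 library, were used. The submitters' processing notes name Bowtie, MACS, MACS2, deepTools and mm9, with no versions or roles. The H3K4me1, H3K27ac and H3K4me3 lists hold a deposited score per peak, which reads as 10 times the −log10 p. The H3K79me2 and H3K27me3 lists hold a deposited fold enrichment (ratio), −log10 p and −log10 q, and a score; the −log10 q was used. Fold and −log10 p were not used. Per the labels, DNA was sheared to 200 to 500 bp and amplified for 10 cycles. Depth is unknown.

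Peaks overlapped from 1 bp on. Covered length counts each base once, within the domain. Intervals of shares are exact binomial ones and of differences Newcombe's. Averages over classes of domains used the losing domains' weights and a normal interval, and over score groups the groups' sizes. Joining and overlap were tested on simulated peaks with known answers. Chromosome X was left out, since the mutant H3K4me1 list has no peak there.

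The domains, comparisons and naming rule were chosen with earlier results of these data known. Named were losing domains that were longest, had the most or best-scoring WT H3K4me1 peaks, the lowest or highest H3K27ac ratio, no mutant H3K27ac, mutant-only H3K27me3 or WT-only H3K79me2, or lay at the rule's edges, and the nearest and farthest from mutant H3K4me1 (added after their values were seen, as were the runs and the H3K79me2 ratios). Gene lists and cell type markers drawn up for mm9 genes were not run. Values were computed with scipy 1.17.1 and numpy 2.4.6 in Python 3.11.15 and drawn with matplotlib 3.10.9.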

Additional observations from a re-analysis of the deposited data

How the results depend on the processing

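The chosen domains depended on how they were drawn. A joining distance of 5000 bp left 82 losing domains, a span of at least 30000 bp 142, domains without WT H3K4me3 67, and the shortened WT H3K4me1 list 181. Losing domains made up 20.3%, 22.0%, 39.9% and 21.5% of the domains with WT H3K4me1 in these settings, and 33.8% with stricter peaks (scores from 100 and −log10 q from 3 upwards).

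With a joining distance of 5000 bp, 61.0% of losing domains overlapped a large mutant domain, 89.1% of their H3K4me1 sites had mutant H3K27ac and 29.3% had mutant H3K27ac at least as long. The median H3K79me2 ratios were 0.895 in losing and 0.960 in keeping domains. With the longer span, 83.1% of sites had mutant H3K27ac, and 97.1% of losing domains with WT H3K79me2 had it in the mutant, 1.02 points above keeping domains. With the shortened list these were 83.1%, 96.6% and 0.827 points, and the difference in sites with mutant H3K27ac was -9.05 points. Without WT H3K4me3, 62.7% of 67 losing domains overlapped a large mutant domain, and 64.3% (35.1 to 87.2) of the 14 with WT H3K79me2 had it in the mutant. The differences were then -15.7 points for H3K79me2 and -10.2 points for sites, and the H3K79me2 ratios 0.310 and 0.820. With domains set by the mutant list, 91.5% of sites had mutant H3K27ac, 76.4% of losing domains had it at least as long as in WT, and 29.5% of domains were losing; the overlap with large mutant domains was not computed there, being given by the rule.

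Besides the H3K79me2 shares above, differences from keeping domains changed sign in 4 cases. Sites with mutant H3K27ac (-5.97 points) became 1.30 points with mutant-set domains and 0.427 points within like WT H3K27ac length (chosen after seeing the data). Acetylation at least as long became 0.813 points with mutant-set domains and 1.15 points within the classes by number of WT H3K4me1 peaks. This difference in acetylated length (-10.6 points) was -9.59 points within like H3K27ac length. The overlap with large mutant domains differed by -5.28 points within the classes by H3K4me1 number and by -4.54 points within like H3K27ac length. The differences in sites set unlike sites side by side: of the 4402 WT H3K4me1 peaks of keeping domains, only 61.7% had no mutant H3K4me1 peak. Among sites without one, 79.77% in losing and 80.45% in keeping domains had mutant H3K27ac. Of 110 values recomputed for 13 results under 10 alternatives, 71 stayed within the main interval or 1.5 times the main count. Adding chromosome X was among these alternatives and returned every main value, so its values count among the 71. The mutant H3K4me1 list has no peak there, so this alternative could add no keeping domain. No paired analysis was possible because each group had 1 library. The cause of these shifts was not tested.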
